A study of Arabidopsis thaliana with 6 samples.

Results

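GH3 genes encode enzymes that join auxin to amino acids, and 5 of them were followed here in sorted root cells of Arabidopsis thaliana: GH3.1, WES1 (also known as GH3.5), GH3.3, GH3.17 and GH3.9. They were chosen by name, with earlier results of these data known, and each was measured by 1 probe set out of 22746 that are not array controls. The cells came from seedlings of the enhancer trap line J0121, in which a GAL4-driven fluorescent protein (GFP) labels xylem pole pericycle cells, where lateral roots begin. All seedlings were grown on 10 µM NPA, a compound that blocks auxin transport. The 0 h group was collected at 72 hours after germination with no added auxin, and the other groups after transfer to 10 µM of the synthetic auxin NAA for 2 h (74 hours after germination) or 6 h (78 hours). Cells were isolated by fluorescence-activated sorting, and each group had 2 one-colour Affymetrix arrays. In such pooled cells a change in RNA per cell and a change in the mix of cells sorted cannot be told apart. Time on NAA, transfer and seedling age changed together between the groups, so these cannot be told apart either.

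Free indole-3-acetic acid, the main natural auxin, releases its own response genes by promoting the breakdown of Aux/IAA repressors, and several GH3 genes are among the classic early response genes. The enzymes they encode use ATP to couple auxin to an amino acid such as aspartate or glutamate, which takes it out of the active pool, so that the family is known as a feedback arm of the pathway. In Arabidopsis, GH3.3 and GH3.5 are known to act in adventitious rooting, the wes1-D mutant with high GH3.5 activity is dwarfed, GH3.17 prefers glutamate, and loss of GH3.9 alters primary root growth.

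On all 6 arrays the authors' scaling brought the trimmed mean to the same level, and array medians ran from 75.75 to 109.9 signal units. Hybridisation controls, transcripts from other organisms that are added to the sample, were brighter on 1 array of each time point (replicate 1 of the 0 h group, replicate 2 of the later groups), with geometric means of 7932 to 17817 against 2430 to 3768 on the other array of each time point, so changes within the brighter and within the dimmer arrays are given beside the results. The 3' to 5' ratio of one pair of actin controls was 4.48 and 3.84 at 6 h against 1.37 to 2.98 before, and that of a second pair was 0.555 and 0.573 at 6 h against 0.567 to 1.32. The part of RNA quality in the results was not tested. The labelled cell type could not be checked, because 0 of 7 listed pericycle and stele markers had a named probe set. Of the listed markers of other root cell types, 1 of 5 for endodermis, 1 of 3 for phloem, 2 of 2 for cortex, 2 of 4 for epidermis, 0 of 3 for xylem and 0 of 3 for root cap had one. Their summed signals at 0 h, 2 h and 6 h were 87 to 119.3, 35.3 to 65.6 and 73.8 to 156.4 for epidermis, 153.1 to 173.7, 62.3 to 128.2 and 77.8 to 89.9 for cortex, and 53.8 to 56, 52 to 77.7 and 41.3 to 119.9 for phloem. Both epidermis probe sets and 1 of the 2 cortex probe sets were called absent on replicate 1 at 2 h, the only array with deposited calls. Their sums are therefore a weak reading of these cell types. The endodermis marker GSO1 read 601.1 and 828.6 at 0 h, then 553.4 and 1213 at 2 h, and finally 75.6 and 26.1 at 6 h.

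**Figure D1:**
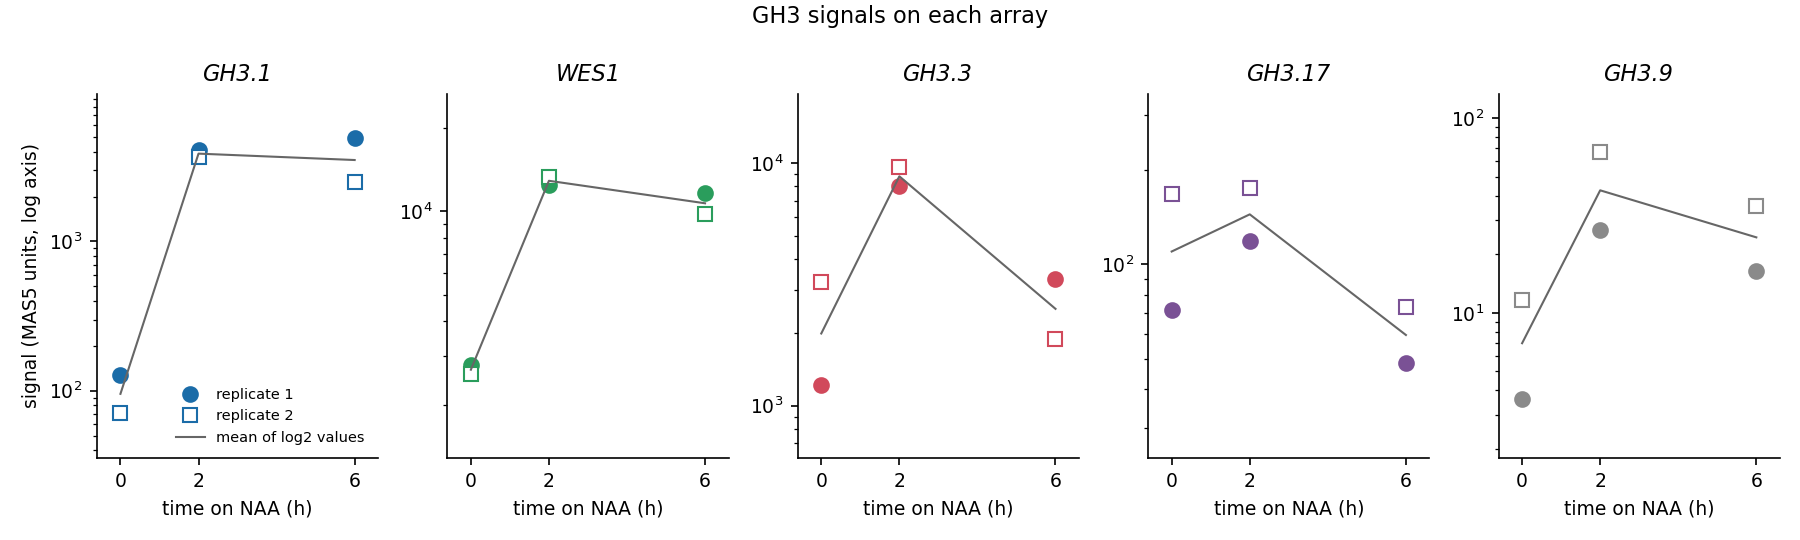
Signal of each GH3 gene on each of the 6 arrays (vertical log axis, MAS5 units, a separate range in each panel) against hours on NAA. Filled circles are replicate 1, open squares replicate 2, and the line joins the means of the log2 values. GH3.1 and WES1 stay high at 6 h, and the GH3.3 arrays at 6 h overlap with those at 0 h.

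After 2 h on NAA, GH3.1, WES1 and GH3.3 were higher than at 0 h. GH3.1 gave signals of 127.3 and 71 at 0 h and of 4114.5 and 3654.3 at 2 h (replicates 1 and 2). Both 2 h arrays lay far above both 0 h arrays, and the 2 h arrays differed from each other by a factor of 1.13. The fit with limma put the rise at 5.28 ± 0.39 on the log2 scale (standard error, 2 arrays a group; 95% interval 4.41 to 6.14; adjusted p = 1.08e-04), a 38.7-fold change and the sixth highest rise (rank 6) among 13647 tested probe sets.

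WES1, whose enzyme also accepts salicylic acid, gave 2785.4 and 2572.1 at 0 h and reached 12466 and 13313.1 at 2 h. Its replicates were the closest of the 5 genes at every time point, with a residual SD of 0.12 on the log2 scale against a median of 0.39 over all tested probe sets. The rise was 2.26 ± 0.32 (95% interval 1.56 to 2.97; adjusted p = 0.00153, limma), a 4.81-fold change. Within the brighter arrays it was 2.25 and within the dimmer arrays 2.27, and for GH3.1 these changes were 4.79 and 5.76.

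GH3.3 gave 1217.7 and 3222.5 at 0 h, rising to 8027.8 and 9665.1 at 2 h. The groups did not overlap, but the 0 h arrays differed from each other by a factor of 2.65. The change was 2.15 ± 0.46 (95% interval 1.14 to 3.16; adjusted p = 0.0123, limma), 4.44-fold, and it was 2.98 within the brighter and 1.32 within the dimmer arrays. This call was lost without replicate 1 at 0 h (change 1.45, adjusted p = 0.0545, limma), without replicate 1 at 2 h (2.28, 0.0553) and without replicate 2 at 2 h (2.02, 0.0984).

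GH3.17 gave 71.6 and 167.3 at 0 h and 118.7 and 175.3 at 2 h, so the groups overlapped. Its change was 0.38 ± 0.52 (95% interval -0.77 to 1.53; adjusted p = 0.697, limma). The interval leaves room for a rise of more than 1 on the log2 scale as well as for a fall. The direction differed between the brighter arrays, at 1.23, and the dimmer arrays, at -0.48. In all, 3 of the 4 tested members rose and 0 fell at 2 h (3 and 0 at an unadjusted p under 0.05), where 7.26% of all tested probe sets were called higher and 4.12% lower. With 2 arrays a group, both later arrays lay above both 0 h arrays for 22.6% of tested probe sets at 2 h and 30.4% at 6 h, so a lack of overlap alone is common. The median change of the 4 was 2.21, against -0.15 over all tested probe sets. Centring the arrays on their medians moved that overall median to 0.12. Relative to the overall median the changes at 2 h were 5.42 for GH3.1, 2.41 for WES1, 2.30 for GH3.3 and 0.53 for GH3.17. These are the same under both scalings by construction. After quantile normalization they were 5.36, 2.26, 2.01 and 0.72 in the same order.

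**Figure D2:**
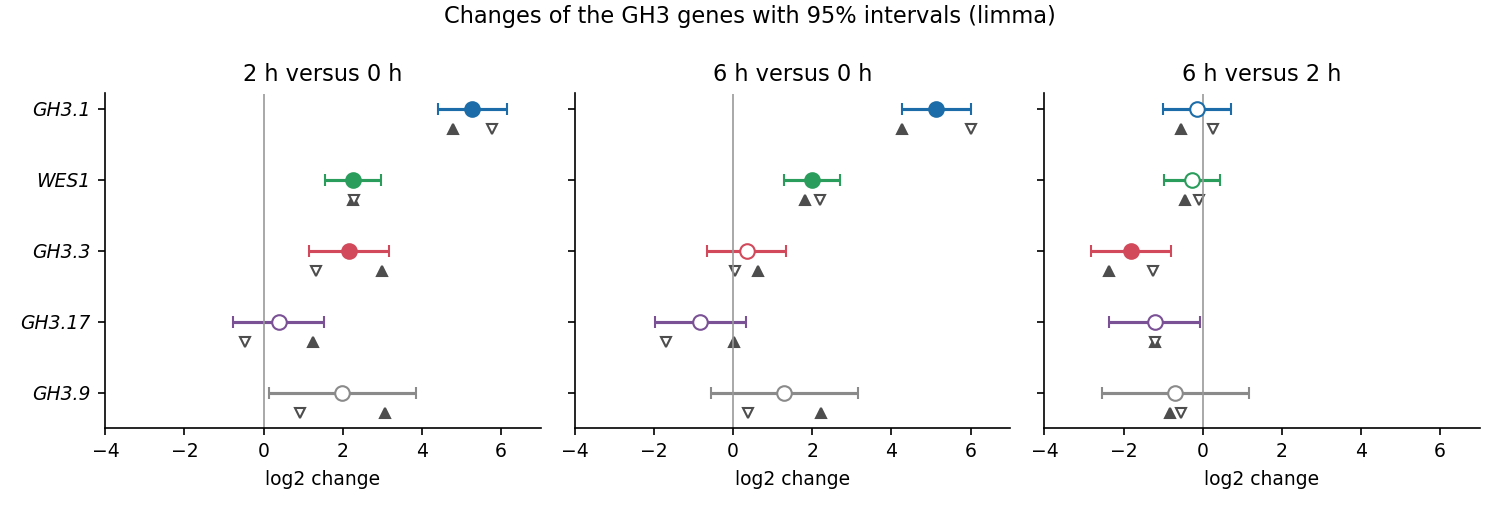
Log2 change of each GH3 gene (rows) in the 3 comparisons (panels), with the 95% interval from limma; filled circles mark an adjusted p under 0.05. Triangles pointing up and down are the changes within the brighter and within the dimmer arrays, and GH3.9 comes from a fit without the filter on low signals. The intervals of GH3.1 and WES1 lie above 0 in both comparisons with 0 h, and that of GH3.3 at 2 h but not at 6 h.

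At 6 h, GH3.1 and WES1 were still above 0 h and GH3.3 was not called. GH3.1 gave 4902.8 and 2517.3 at 6 h, both above the 0 h arrays and on either side of the 2 h arrays. Its change against 0 h was 5.13 ± 0.39 (95% interval 4.27 to 6.00; adjusted p = 1.21e-05, limma), 35.1-fold, with 4.25 within the brighter and 6.01 within the dimmer arrays. It ranked 38 among the rises of all tested probe sets at that time.

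WES1 gave 11684.7 and 9768.9 at 6 h, both far above its 0 h arrays. Its change was 1.99 ± 0.32 (95% interval 1.29 to 2.70; adjusted p = 7.66e-04, limma), a 3.99-fold rise, with 1.81 and 2.18 within the brighter and dimmer arrays. GH3.3, at 3335.7 and 1879.2, overlapped with its 0 h arrays. Its change of 0.34 ± 0.46 (95% interval -0.67 to 1.35; adjusted p = 0.618, limma) has an upper limit below the 2.15 estimated at 2 h, and it was -0.36 without replicate 1 at 0 h and -0.08 without replicate 1 at 6 h.

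GH3.17 gave 48.3 and 73.1 at 6 h. The higher of these lay just above the lower 0 h array, and the change was -0.83 ± 0.52 (95% interval -1.98 to 0.32; adjusted p = 0.251, limma). It was 0.03 within the brighter and -1.69 within the dimmer arrays. Thus 2 of the 4 tested members rose at 6 h and 0 fell (2 and 0 at an unadjusted p under 0.05), where 16.8% of all tested probe sets were called higher and 17% lower. The median of the 4 changes was 1.17, against -0.11 over all tested probe sets. The comparisons at 2 h and 6 h share the 0 h arrays.

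Between 2 h and 6 h GH3.3 fell and the other 3 tested members were not called. The GH3.3 change was -1.81 ± 0.46 (95% interval -2.82 to -0.80; adjusted p = 0.0322, limma), a mean signal 3.39 times lower at 6 h, and neither 6 h array overlapped with a 2 h array. The change was -2.36 within the brighter arrays and -1.27 within the dimmer. The call was lost when any of the 4 arrays at 2 h or 6 h was left out (adjusted p = 0.0584 to 0.247, limma), when arrays were centred on their medians (0.0532) and without the intensity trend in the fit (0.0902). The endodermis marker GSO1 also fell over this interval (-4.04 ± 0.50; adjusted p = 5.91e-04, limma), and its part in the GH3.3 result was not tested.

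WES1 was lower on both 6 h arrays than on either 2 h array, but the difference of -0.27 ± 0.32 (95% interval -0.98 to 0.44; adjusted p = 0.666, limma) was no larger than its standard error. That standard error also draws on the spread of other probe sets, and the residual SD of WES1 itself was 0.12. For GH3.1 the difference was -0.14 ± 0.39 (95% interval -1.01 to 0.72; adjusted p = 0.870, limma), and the 2 h and 6 h arrays overlapped. GH3.17 was lower on both 6 h arrays than on either 2 h array. Its change of -1.21 ± 0.52 was -1.21 in both the brighter and the dimmer arrays and had an unadjusted p of 0.0411, but it was not called (adjusted p = 0.196, limma). So 0 of the 4 rose and 1 fell (0 and 2 at an unadjusted p under 0.05), where 3.13% of all tested probe sets were called higher and 5.59% lower, and where both 6 h arrays lay below both 2 h arrays for 25.3%. By the calls, 0 h therefore lay below 2 h and 6 h for GH3.1 and WES1, whose later times were not called apart. For GH3.3, 2 h lay above 0 h and 6 h, which were not called apart.

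**Figure D3:**
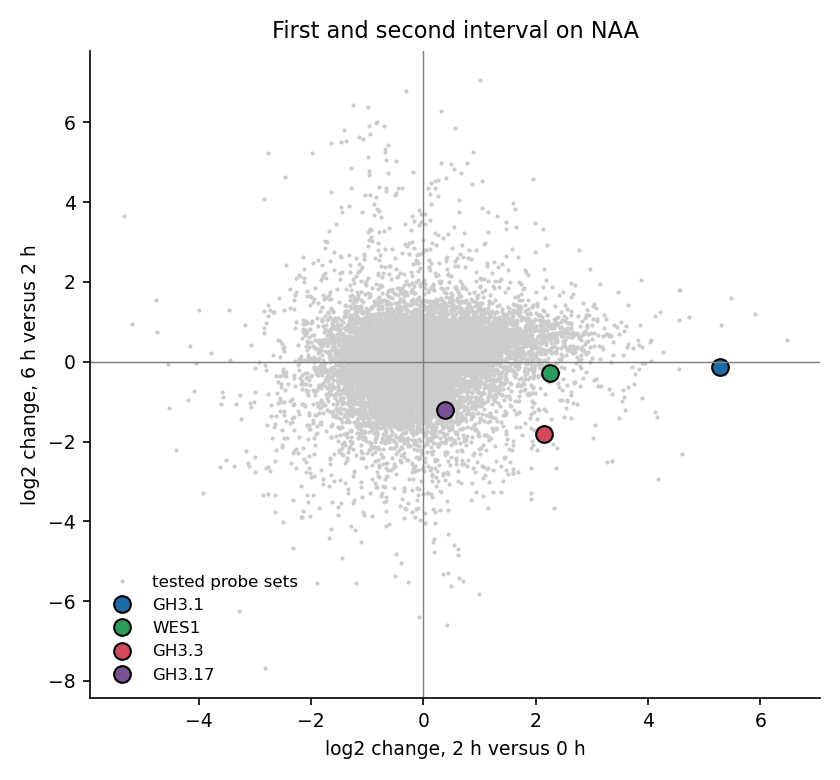
Log2 change from 0 h to 2 h (horizontal) against that from 2 h to 6 h (vertical) for 13647 tested probe sets (grey) and 4 GH3 genes (coloured). Both axes use the 2 h arrays. GH3.1 and WES1 lie to the right near the horizontal line, GH3.3 to the right and below it at -1.81, and GH3.17 below it near the vertical line.

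The F test over the 3 time points, which asks for any difference, was passed by GH3.1 (adjusted p = 1.65e-05, limma), WES1 (6.28e-04) and GH3.3 (0.00829) and not by GH3.17 (0.207), where 29.6% of all tested probe sets passed. Being called higher at 2 h and lower again at 6 h than at 2 h, as GH3.3 was, held for 48 of 13647 probe sets (0.352%). Being called higher at both times against 0 h, as GH3.1 and WES1 were, held for 899 (6.59%).

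GH3.9 had no signal above 67 and lay below the filter, with a mean of 4.68 on the log2 scale against a threshold of 5.80. The 0 h arrays read 3.6 and 11.7, those of 2 h 26.5 and 67, and those of 6 h 16.5 and 35.3. Both 2 h arrays and both 6 h arrays were above both 0 h arrays, while the 2 h and 6 h arrays overlapped. The replicates of a time point differed by factors of 2.14 to 3.25, replicate 2 being the higher each time. On replicate 1 at 2 h, the array for which the authors deposited detection calls, GH3.9 was called absent (detection p = 0.150), and the other 4 members were called present (detection p = 2.44e-04 for GH3.1, WES1 and GH3.3, and 0.00415 for GH3.17).

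In a fit without the filter GH3.9 was called in none of the 3 comparisons. At 2 h its change was 1.99 ± 0.86 (95% interval 0.14 to 3.84; unadjusted p = 0.0371, adjusted p = 0.233, limma), where 5.89% of 22746 probe sets were called. It was 3.07 within the brighter and 0.92 within the dimmer arrays, and 1.22 with a pseudocount of 20. At 6 h the change was 1.30 ± 0.86 (95% interval -0.56 to 3.15; adjusted p = 0.356, limma; 19.2% of probe sets called), and between 2 h and 6 h it was -0.69 ± 0.86 (95% interval -2.55 to 1.16; adjusted p = 0.777; 4.84% called). At these signal levels the fit did not settle whether this gene changed. The 4 other members passed the filter, and the mean of each at each time point was above the threshold, the lowest being 6.01 for GH3.17 at 6 h.

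A list of 14 further GH3 loci was drawn up from general knowledge of the family. Of these, 6 had a probe set in the name table, where they carry locus names only. All 6 lay below the filter and were called absent on replicate 1 at 2 h, and their signals ran from 1.4 to 69.7 over the arrays. Without the filter 0 of them were called in any comparison (lowest adjusted p = 0.294, limma). In that fit 5.89% of 22746 probe sets were called at 2 h, 19.2% at 6 h and 4.84% from 2 h to 6 h. With 6 dim probe sets, 0 calls says little about these genes. The remaining 8 loci were not analysed here.

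Other genes that remove active auxin were sparsely represented. Of 5 listed genes for auxin oxidation, glucosylation and methylation 2 were tested: UGT74D1, a glucosyltransferase gene, and AT1G14130, which the list holds as the auxin oxidase gene DAO1 and the annotation under its locus name. AT1G14130 read 146.6 and 271.3 before NAA, 361.1 and 512.3 at 2 h and finally 137.2 and 100.7. Its highest signals were thus at 2 h, where it was not called against 0 h (1.09 ± 0.40; adjusted p = 0.110, limma), and it fell from 2 h to 6 h (-1.83 ± 0.40; adjusted p = 0.0159). UGT74D1 gave 344.8 and 270.9, then 224.9 and 231.5, then 105.3 and 74.5. It was lower at 6 h than at 0 h (-1.73 ± 0.36; adjusted p = 0.00374, limma) and than at 2 h (-1.32 ± 0.36; 0.0476). The falls from 2 h to 6 h were not called when any 1 of the 4 arrays compared was left out (adjusted p = 0.0505 to 0.165 for AT1G14130 and 0.0883 to 0.248 for UGT74D1, limma), and that of UGT74D1 also not without the filter (0.0789), after quantile normalization (0.0501), without the intensity trend (0.0744) or with the hybridisation controls as a block (0.0753). Of this list 0 members rose in any comparison (1 at an unadjusted p under 0.05, at 2 h). Over all tested probe sets 7.26% were called higher and 4.12% lower at 2 h, and 16.8% and 17% at 6 h. From 2 h to 6 h these shares were 3.13% and 5.59%. With 2 tested genes, the counts say little about the list.

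Of 14 auxin biosynthesis genes YUC2 was the only one tested, and it was not called (changes of -0.79, -0.43 and 0.36 at 2 h and 6 h against 0 h and from 2 h to 6 h; adjusted p = 0.417, 0.609 and 0.754, limma). Of 29 Aux/IAA repressor genes, which are auxin response genes like several GH3 genes, 3 were tested. Against 0 h, 2 of them rose at 2 h and 2 at 6 h, IAA29 and IAA30 each time. From 2 h to 6 h 0 of these 3 were called (0 at an unadjusted p under 0.05). Of all tested probe sets 7.26% were called higher at 2 h and 16.8% at 6 h, and from 2 h to 6 h 3.13% higher and 5.59% lower. IAA20, which is named here because of its values, was too dim on average to be tested, with signals of 8.5 and 3.3 at 0 h, then 35.7 and 11.7 at 2 h, and finally 391.5 and 377.8 at 6 h. Without the filter it was called higher at 6 h than at 0 h (5.2, adjusted p = 4.28e-04, limma) and than at 2 h (3.9, 0.00999). IAA29 had mean signals of 366, 4686 and 3495 at 0 h, 2 h and 6 h, and IAA30 151, 739.7 and 1204. IAA30 was not called at 2 h without replicate 2 at 0 h (adjusted p = 0.104, limma), without replicate 1 or 2 at 2 h (0.161 and 0.0553), without the intensity trend (0.0686) or with the hybridisation controls as a block (0.0550). None of the listed auxin amide hydrolases (7), transporters (15), receptors (6) and ARF transcription factors (5) had a named probe set, and they were not analysed here.

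**Figure D4:**
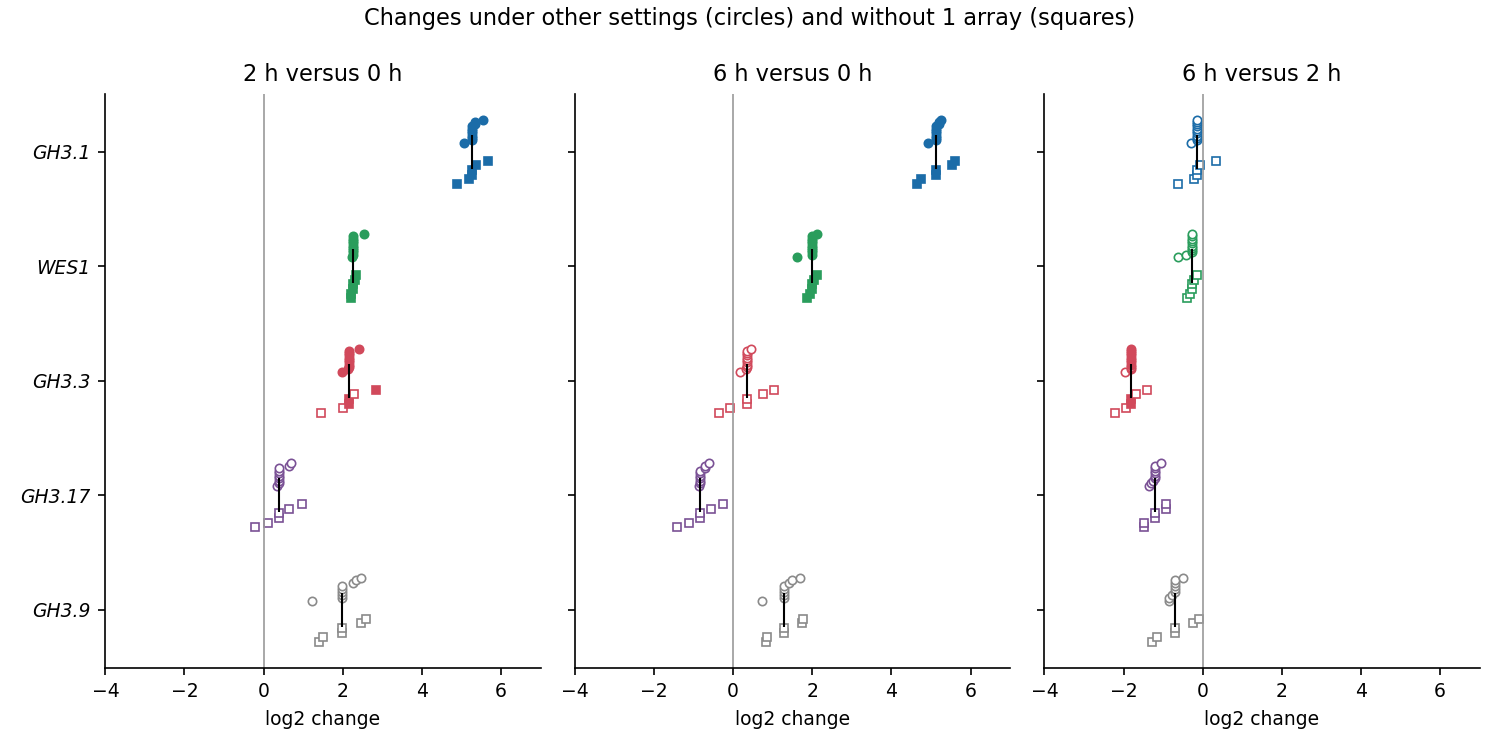
Log2 change of each GH3 gene (rows) in the 3 comparisons (panels) under other settings (circles, upper) and without 1 array in turn (squares, lower); filled symbols mark an adjusted p under 0.05 and the black line the reported value. GH3.1 and WES1 are filled throughout in both comparisons with 0 h, while several GH3.3 symbols at 2 h and from 2 h to 6 h are open.

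To place the profiles, each tested member was compared with 7425 other tested probe sets that have 1 named locus, by Pearson correlation of log2 signals over the 6 arrays. The arrays share their groups and scaling, so these values only describe likeness. The genes named for each member were picked by it on these same arrays. Their changes and adjusted p therefore follow in part from that choice and are no separate evidence. Nearest to GH3.1 were AT2G39870 (r = 0.998), AT4G29200 (0.994) and BRL1, a gene for a brassinosteroid receptor of the vascular tissue (0.994). The mean signal of AT2G39870 went from 14.85 at 0 h to 742.2 at 2 h and 623.1 at 6 h, and its change at 2 h, 5.37, was close in size to that of GH3.1. BRL1 rose by 3.00 at 2 h (adjusted p = 3.10e-04, limma) and AT4G29200 by 1.13 (0.0328). The AT4G29200 call was lost under several other settings (adjusted p = 0.0528 to 0.0773, limma). It was also lost when any array but replicate 1 at 0 h was left out. For BRL1 and AT4G29200 the likeness is thus one of shape and not of size.

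Nearest to WES1 were AT1G33420 (r = 0.998), AT3G19200 (0.995) and AT1G34110 (0.992), with rises at 2 h of 2.28, 2.85 and 3.72 (adjusted p = 0.00177, 5.36e-04 and 1.64e-04, limma). AT1G33420 was closest in size as well, at 1.91 against 1.99 for WES1 at 6 h. Nearest to GH3.3 were AT1G09230 (0.982), AT1G21920 (0.982) and AT2G19280 (0.979), of which 0 were called in any comparison by limma, and the mean signals of AT1G09230 stayed between 158 and 195.2. Correlations above 0.95 were reached by 189 probe sets for GH3.1, 114 for WES1, 18 for GH3.17 and 9 for GH3.3. For GH3.17 the nearest were LTI30, a dehydrin gene of cold and drought responses (0.984), AT5G66070 (0.976) and AT2G22880 (0.975). Like GH3.17, these 3 were called in 0 comparisons (limma), and LTI30 had mean signals of 12864, 14663 and 6450.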

How the data were processed

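The 6 arrays were Affymetrix one-colour arrays hybridised with biotin-labelled cRNA, which per the labels' protocols was made from undetectable amounts of total RNA. The authors deposited 1 linear signal intensity for each probe set, made with MAS5 per the submitters' processing notes, which give no version. The mean after trimming 2% at each end was 250 on every array, read from the values. A detection p-value and call for every probe set were deposited for 1 array, replicate 1 at 2 h, whose signals equal those of the series table.

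Signals were analysed as log2(signal + 5), which understates changes of dim probe sets. After leaving out 64 controls, the 13647 probe sets with a mean above the 40th percentile were tested in 1 fit of all 6 arrays (limma 3.58.1, R 4.3.3, intensity trend, 3 residual and 8.26 prior degrees of freedom), with Benjamini-Hochberg adjustment over all of them and a threshold of 0.05. The fit was tested on simulated data. GH3.9, below the filter, was fitted without it. The exact permutation p of a single gene cannot go below 0.333 with 2 arrays against 2. Arrays have no read depth, and their number limits the precision. The labels call the replicates biological without naming separate cultures, so p-values rest on the spread between these arrays only. For each gene that spread is moderated toward that of probe sets of similar intensity, with more prior than residual degrees of freedom.

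Names come from a table that gives 1 gene for 13513 probe sets, several for 503 and none for 8794; 13436 matched a locus of the RefSeq gene table for TAIR10.1. Probe sequences were not used here, so cross-hybridisation between GH3 genes was not examined. The 5 members and the lists were chosen with earlier results of these data known. All members are named, and of other genes called list members (up to 4 per list and comparison) and the 3 nearest profiles of each tested member. YUC2 is named as the only tested member of its list, and GSO1 because it was called. The only tested markers of phloem, cortex and epidermis were not called and are not named. Alternatives are given at the end. Same-numbered arrays of different time points had deviations correlated at 0.06, 0.11 and 0.15, so the numbers were not taken to pair them.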

Additional observations from a re-analysis of the deposited data

Results flagged for a closer look

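In the main fit the change of GH3.3 against 0 h differed between 2 h and 6 h, at 2.15 and 0.34. The test of the difference, the comparison of 6 h with 2 h, gave -1.81 ± 0.46 (adjusted p = 0.0322, limma, lower on 2 of 2 arrays). Over 17 alternatives the adjusted p of this difference ran from 0.00561 to 0.247. Both changes use the same 0 h arrays, which differed by a factor of 2.65 for this gene. The test of the difference takes its value from the 2 h and 6 h arrays alone.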

How the results depend on the processing

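GH3.1 and WES1 kept their direction and their call in both comparisons with 0 h under all 17 alternatives that gave a value, with changes of 4.88 to 5.67 and 2.21 to 2.53 at 2 h and of 4.65 to 5.61 and 1.62 to 2.12 at 6 h. The GH3.3 call at 2 h depended on single arrays (1.45 to 2.85 with each array left out) and held under the 11 other alternatives (adjusted p up to 0.0468, limma). Its fall from 2 h to 6 h was not called after centring on the medians (-1.96, adjusted p = 0.0532), which left 0 members called in that comparison, nor without the intensity trend (-1.81, adjusted p = 0.0902; 0 members called), and ran from -2.23 to -1.40 with each array left out (0 to 1 members called). Directions turned only where an array was left out, for changes that were not called: GH3.17 at 2 h (-0.21 to 0.96), GH3.3 at 6 h (-0.36 to 1.04) and GH3.1 from 2 h to 6 h (-0.62 to 0.34). The cause of these differences was not tested, beyond the smaller number of arrays. With 1 array of a time point left out, the other is assumed to vary like the other groups. GH3.17 was below the filter at the 60th percentile. Of 246 recomputed member changes 233 kept their direction and their side of the threshold. This tally includes settings that alter only the estimate of the spread, where the direction cannot turn. It also includes GH3.9 and GH3.17, which were not called in any comparison. With the replicate number as a block the changes were the same by construction. The GH3.3 values had adjusted p = 0.00757 at 2 h and 0.0212 from 2 h to 6 h (limma), and the block changed no call of a member. Over all tested probe sets it raised the number called to 2038 at 2 h, 5106 at 6 h and 1662 from 2 h to 6 h. The 1553 probe sets called at 2 h became 976 without the trend and 463 to 1542 with an array left out; at 6 h 4612 became 3039 to 4460, and from 2 h to 6 h 1190 became 497 to 1722. Centring on the medians moved the share of higher calls from 63.8% to 82.4% at 2 h. An added 2-fold minimum left the number of called members as it was.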

Other observations

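Among other genes that inactivate auxin, UGT84B1, which encodes a glucosyltransferase that acts on indole-3-acetic acid, lay below the filter with signals of 63.4 and 26.2 before NAA, then 23.7 and 1.1 at 2 h, and finally 1.9 and 3.2 at 6 h. It was named after its values were seen and was called absent on replicate 1 at 2 h. These are values at the low end of the signal range and were not tested in the reported fit; without the filter the adjusted p against 0 h was 0.304 at 2 h and 0.0556 at 6 h (limma).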
